A study of Mus musculus with 16 samples.

Results

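The genes described here are 10 general markers of neurons: the tubulin Tubb3, the microtubule regulators Stmn2 and Dcx, the growth cone protein Gap43, the filament proteins Nefl, Nefm and Ina, the RNA-binding proteins Elavl3 and Elavl4, and the vesicle fusion protein Snap25. They were taken by name, as every probe set whose platform annotation names 1 of these genes and no other gene. This gave 22 of 45101 probe sets and 10 of 18194 genes. For each gene the probe set with the highest mean log2 value over all 16 arrays leads, and the others serve as a check. The series measured RNA of mouse neural crest stem cells (NCSCs), multipotent embryonic cells that form peripheral neurons, glia and mesenchymal tissue, on Affymetrix arrays. Autonomic arrays hold NCSCs primed to neurons, Glia arrays NCSCs primed to glia, Mesenchymal arrays NCSCs primed to mesenchyme, and the arrays called NCSCs hold unprimed cells, with 4 arrays in each group. All groups came from primary neural crest material kept in the same NCSC medium, and the study asked how instructive growth factors change gene expression. The sources used here name neither the growth factors nor the length of exposure, the strain or the embryonic age. Whether replicates were separate cultures is not stated, so p-values measure the spread between these samples, which may be technical. Samples are bulk RNA, so more cells of a type cannot be told apart from more RNA per cell.

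Young neurons build a stable array of microtubules and, later, a lattice of neurofilaments along the axon, while their growth cones stay dynamic. Neuron-specific tubulin, microtubule-binding proteins such as doublecortin, and tubulin-binding stathmins act early in this process, and the neurofilament light and medium subunits co-assemble with alpha-internexin. The Elavl (Hu) proteins bind AU-rich elements and shape splicing and stability of neuronal transcripts. Snap25 is a SNARE protein on the target membrane that fuses vesicles at the synapse. Several of these genes are textbook targets of the repressor REST, which silences neuronal genes outside neurons through the RE1 element, and many are switched on after proneural basic helix-loop-helix factors, which bind E-boxes.

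RefSeq promoters (GRCm38.p6, from 250 bases before to 50 after a start) were found for 5 of the 10 genes, as 9 promoters of Tubb3, Dcx, Elavl3, Elavl4 and Ina. The promoters of Tubb3, the brightest of the 10, and of Ina, the gene with the most deviant single array, are shown because both hold a match to a part of the RE1 element. Both are on the plus strand, Tubb3 at chr8:123411303-123411602 and Ina at chr19:47014431-47014730. Capitals mark matches on either strand to the E-box CANNTG or to GGACAG, a part of RE1.
Tubb3: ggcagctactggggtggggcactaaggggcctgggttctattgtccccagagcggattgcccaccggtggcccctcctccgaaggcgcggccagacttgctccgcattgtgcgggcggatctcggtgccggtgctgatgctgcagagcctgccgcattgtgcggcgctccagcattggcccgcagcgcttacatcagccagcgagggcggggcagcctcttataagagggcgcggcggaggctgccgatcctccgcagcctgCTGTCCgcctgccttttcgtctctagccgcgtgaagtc
Ina: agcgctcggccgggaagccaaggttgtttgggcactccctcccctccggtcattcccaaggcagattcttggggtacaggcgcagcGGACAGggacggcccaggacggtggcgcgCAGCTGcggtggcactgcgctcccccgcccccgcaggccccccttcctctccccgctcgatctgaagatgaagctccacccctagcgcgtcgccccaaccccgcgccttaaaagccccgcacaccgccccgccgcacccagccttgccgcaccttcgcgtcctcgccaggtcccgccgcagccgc
Counted from the transcription start, the leftmost base of the GGACAG match was at 12 in Tubb3, on the opposite strand, and at -164 in Ina. The E-box of Ina was at -135, and the Tubb3 window held none. GGACAG was found in 2 of the 9 promoters, against 22.2% of 32851 promoters of the same length, and the E-box in 5 of the 9 (of Elavl3, Elavl4 and Ina), against 72.3%. Windows of Dcx and of Elavl4 partly overlap, so the 9 are not separate and the shares compare only roughly. Counted by gene, GGACAG was in 2 and the E-box in 3 of the 5 genes. The other part of RE1, TTCAGCACC, was in none of the 9 promoters and in 0.371% of all promoters. The GC content was 67.3% for Tubb3 and 71.7% for Ina, against a median of 52.7%. Such matches are descriptions of letters and not of binding.

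The log2 medians of the arrays spanned 3.05 to 3.15. Pairs of arrays in a group correlated at 0.896 to 0.949 and pairs from different groups at 0.898 to 0.948, and 0 pairs were identical. Autonomic replicate 1 stood apart from its group. On the first principal component (14.4% of the variance) it lay at -39.7, against 28.9 to 57.3 for the other Autonomic arrays and -49.6 to -21.2 for NCSCs arrays. The mean log2 level of 8 neural crest markers was 5.17 on this array, against 6.70 to 6.96 on the other Autonomic and 6.40 to 7.39 on NCSCs arrays, with Sox10 at 4.30. Sox10, Ngfr, Tfap2a, Foxd3, Ets1 and Snai2 had their lowest Autonomic level on this array, while Pax3 (7.33) and Sox9 (6.57) did not. Snai2, at 5.17 there, lay within its NCSCs range of 2.18 to 5.83. The mean of the neural tube markers was 6.54 in Autonomic replicate 1, 5.51 in Mesenchymal replicate 3 and 7.05 in NCSCs replicate 4, and lay between 2.86 and 4.67 on the other 13 arrays. Pax6, a neural tube transcription factor, was at 9.54 in Autonomic replicate 1 and 9.49 in NCSCs replicate 4 (named after its values were seen). Other genes of this list differed between these arrays. Olig2 and Nkx2-2 were at 1.75 and 1.88 in Autonomic replicate 1, against 4.79 and 5.49 in NCSCs replicate 4. In Mesenchymal replicate 3 Sox1 (9.41) and Dbx1 (6.12) were the highest of their group, while Irx3 (5.35), Hes5 (5.78), Olig2 (1.51) and Nkx2-2 (1.44) were not. Of the defining genes of autonomic neurons, in Autonomic arrays Phox2a was at 1.95 to 2.49, the tyrosine hydroxylase gene Th at 2.18 to 3.86 and the dopamine beta-hydroxylase gene Dbh at 3.63 to 4.92, while the brightest, the transcription factor gene Gata2 and the receptor gene Ret, averaged 5.16 and 4.34 there, against 4.73 and 3.70 in NCSCs arrays. The mean of the 8 measured autonomic markers was 3.22 to 3.88 in Autonomic and 3.00 to 3.30 in NCSCs arrays. By limma 0 of these 8 were called and 0 had an unadjusted p under 0.05 in Autonomic minus NCSCs arrays, although all 8 had a value above 0. Of 9 smooth muscle and mesenchyme markers 8 were above 0 there (50.5% of all genes), with a median of 1.66. Limma called 0 of the 9 (0.434% of all genes), and 5 had an unadjusted p under 0.05 (9.8% of all genes). Their median was 1.94 in Glia minus NCSCs and 1.31 in Mesenchymal minus NCSCs arrays. Their mean level was 6.06 to 8.09 in Autonomic and 5.11 to 6.43 in NCSCs arrays. The part of these array differences in the results below was not tested, and several values below are also given without 1 of these arrays.

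On the log2 scale, which is used for every level below, 7 of the 10 genes lay above the array median on all 16 arrays. Ina did so on 15, Snap25 on 7 and Dcx on 3. Tubb3 already had an average of 9.73 ± 0.51 in NCSCs arrays (SD, n = 4), and Dcx averaged 2.51 ± 0.27 there, below the array medians. Signal over background was not measured, so no level of Dcx or of low Snap25 arrays was shown to exceed background. The mean of the 10 genes was highest in Mesenchymal replicate 3 (6.45) and Autonomic replicate 1 (6.44) and lowest in Glia replicate 1 (4.84).

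**Figure D1:**
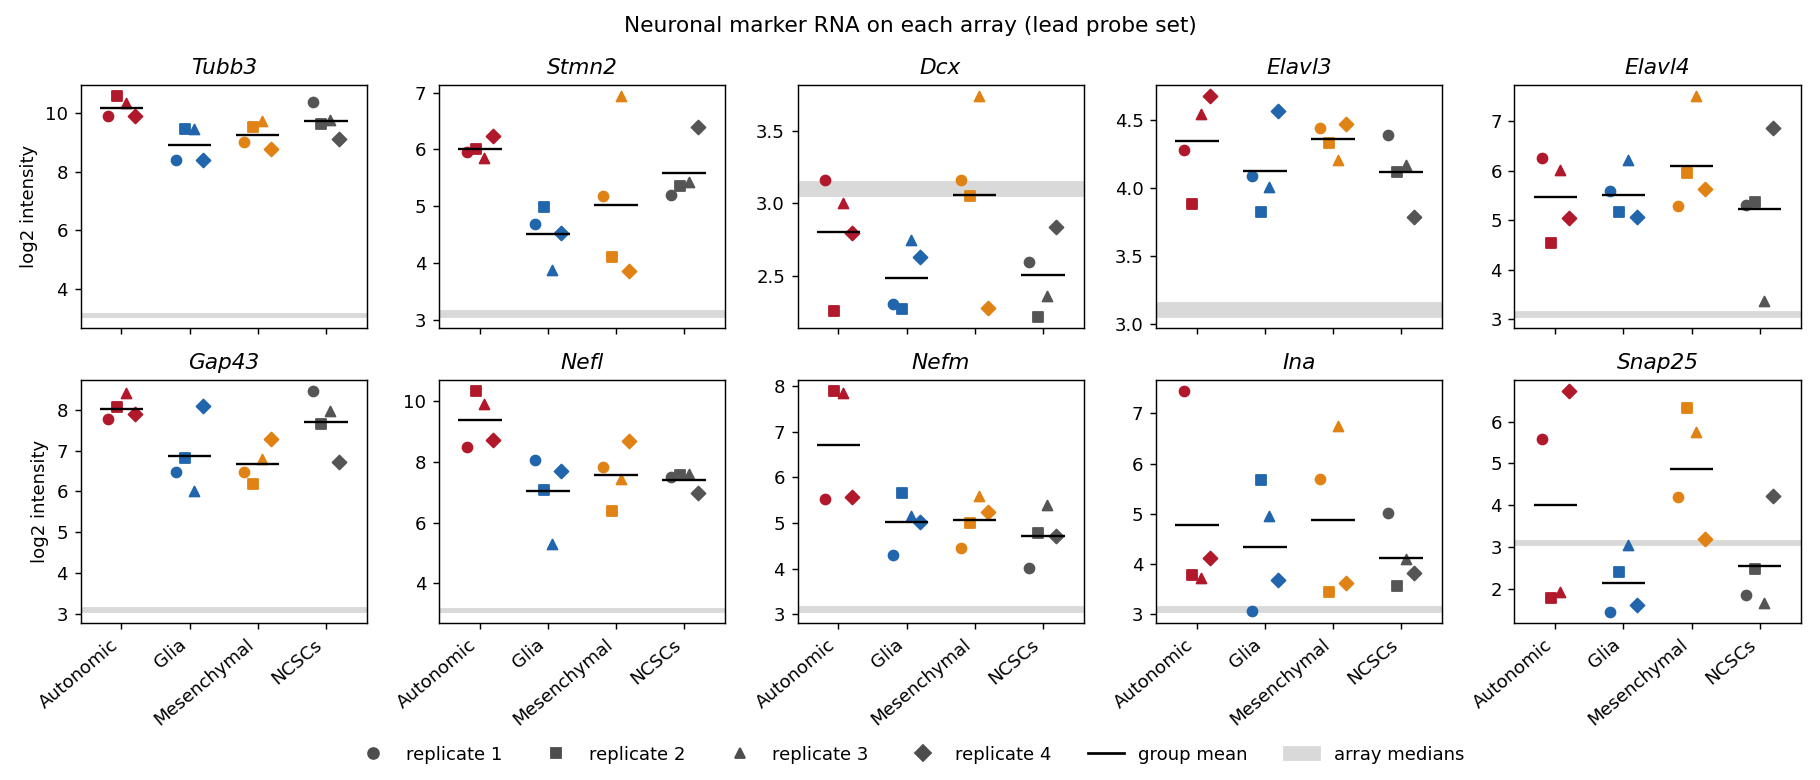
Log2 intensity (vertical axes, each panel with its own range) of the leading probe set of each gene on 16 arrays, in 4 groups of 4, with 1 marker per array, marker shape for the replicate number, a black line for the group mean and a grey band for the range of array medians. Nefl and Nefm were higher on all 4 Autonomic arrays than on any NCSCs array, Autonomic replicate 1 stood alone in Ina at 7.44, and Snap25 was split within the Autonomic group.

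Tubb3, the neuron-specific beta-tubulin, was at 9.92, 10.59, 10.36 and 9.90 in Autonomic replicates 1 to 4, at 8.40, 9.45, 9.45 and 8.42 in Glia, at 9.03, 9.53, 9.73 and 8.78 in Mesenchymal and at 10.37, 9.62, 9.78 and 9.13 in NCSCs replicates. Autonomic arrays lay above all Glia and Mesenchymal arrays and overlapped the NCSCs arrays. The difference of Autonomic from NCSCs arrays was 0.47 (95% interval -0.235 to 1.17, limma adjusted p = 0.709), and 0.27 without NCSCs replicate 4. Glia arrays differed from NCSCs arrays by -0.80 (unadjusted p = 0.0289, limma adjusted p = 0.418), Autonomic from Glia arrays by 1.26 (SE 0.33, adjusted p = 0.403) and Autonomic from Mesenchymal arrays by 0.93 (adjusted p = 0.397).

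Stmn2 (SCG10), a stathmin that destabilises microtubules in growing axons, was at 5.96, 6.01, 5.85 and 6.23 in Autonomic, 4.68, 4.98, 3.88 and 4.52 in Glia, 5.17, 4.10, 6.94 and 3.86 in Mesenchymal and 5.19, 5.35, 5.42 and 6.39 in NCSCs replicates 1 to 4. On this leading probe set Autonomic arrays agreed most closely, and Glia arrays lay below every Autonomic and every NCSCs array. Glia differed from NCSCs arrays by -1.07 (SE 0.52, limma adjusted p = 0.519) and Autonomic from Glia arrays by 1.50 (unadjusted p = 0.0121, limma adjusted p = 0.692). Mesenchymal replicate 3, an array with a raised mean of the neural tube markers, held the highest Stmn2 level of all 16. The Mesenchymal minus NCSCs difference was -0.57 with this array and -1.21 without it (limma adjusted p = 0.481). The same change took the difference of Autonomic from Mesenchymal arrays to 1.64 (adjusted p = 0.104), against 1.00 with all arrays. On the second, dimmer Stmn2 probe set Glia arrays (2.72 to 3.51) overlapped both Autonomic (3.04 to 4.63) and NCSCs arrays (3.34 to 4.24). It gave 0.78 for Autonomic minus Glia (limma adjusted p = 0.882), -0.64 for Glia minus NCSCs and 0.18 for Autonomic minus Mesenchymal.

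Gap43, a membrane-bound protein of growth cones, was at 7.77, 8.06, 8.41 and 7.89 in Autonomic, 6.48, 6.83, 6.02 and 8.10 in Glia, 6.47, 6.19, 6.79 and 7.28 in Mesenchymal and 8.46, 7.66, 7.97 and 6.73 in NCSCs replicates. Autonomic arrays lay above all Mesenchymal arrays, while Glia replicate 4 and NCSCs replicate 4 crossed the other groups. The difference was 1.35 between Autonomic and Mesenchymal arrays (SE 0.43, limma adjusted p = 0.317), -1.02 between Mesenchymal and NCSCs arrays (unadjusted p = 0.0306, limma adjusted p = 0.596), -0.84 between Glia and NCSCs arrays (adjusted p = 0.545) and 0.33 between Autonomic and NCSCs arrays (adjusted p = 0.877). The log2 ratio of the 3' over the 5' Gapdh control also moved with priming, at a mean of 2.85 in Autonomic, 2.95 in Glia, 2.96 in Mesenchymal and 2.35 in NCSCs arrays. With that ratio as a covariate the Gap43 difference was -0.22 in Mesenchymal, -0.05 in Glia and 0.99 in Autonomic arrays, each against NCSCs. Without NCSCs replicate 4, which held raised neural tube markers and the lowest Gap43 level of its group, the differences were -1.35 for Mesenchymal, -1.17 for Glia and 0.0032 for Autonomic arrays.

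Dcx, which binds and stabilises microtubules in migrating neurons, was at 3.16, 2.26, 3.00 and 2.80 in Autonomic, 2.31, 2.27, 2.75 and 2.63 in Glia, 3.16, 3.05, 3.74 and 2.28 in Mesenchymal and 2.60, 2.22, 2.36 and 2.84 in NCSCs replicates. On this leading probe set all groups overlapped at these low levels. The largest of its 6 differences in size were -0.57 for Glia minus Mesenchymal (limma adjusted p = 0.749) and 0.55 for Mesenchymal minus NCSCs (adjusted p = 0.677), which was 0.32 without Mesenchymal replicate 3. A second Dcx probe set was at 7.70 in Autonomic replicate 1 and 5.57 in Glia replicate 1, but between 0.99 and 2.53 on the other 14 arrays. Autonomic replicate 1 thus stood out on that probe set and not on the leading one.

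Nefl, the light subunit that forms the core of neurofilaments, was at 8.49, 10.34, 9.92 and 8.73 in Autonomic, 8.05, 7.08, 5.28 and 7.71 in Glia, 7.84, 6.38, 7.44 and 8.68 in Mesenchymal and 7.50, 7.58, 7.61 and 6.98 in NCSCs replicates. All 4 Autonomic arrays lay above every NCSCs and every Glia array. Autonomic arrays averaged 9.37 ± 0.90 and NCSCs arrays 7.42 ± 0.29 (SD, n = 4), a difference of 1.95 (3.87-fold, SE 0.60, 95% interval 0.671 to 3.23), which did not pass (unadjusted p = 0.00553, limma adjusted p = 0.223). Nefl also had the largest difference of the 10 genes between Autonomic and Glia arrays, at 2.34 (unadjusted p = 0.00151, limma adjusted p = 0.401), and differed by 1.79 from Mesenchymal arrays (adjusted p = 0.371). The second, dimmer Nefl probe set gave 1.69 for Autonomic minus NCSCs (limma adjusted p = 0.435), with 4.40, 6.87, 5.46 and 6.79 in Autonomic and 3.66, 4.38, 3.81 and 4.91 in NCSCs replicates. On this probe set Autonomic replicate 1 lay within the NCSCs range.

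Nefm, the medium subunit whose tail extends between filaments, was at 5.53, 7.89, 7.84 and 5.56 in Autonomic, 4.30, 5.65, 5.15 and 5.01 in Glia, 4.45, 4.99, 5.60 and 5.23 in Mesenchymal and 4.01, 4.77, 5.39 and 4.71 in NCSCs replicates. All Autonomic arrays exceeded all NCSCs arrays, but replicates 2 and 3 were far above replicates 1 and 4. Autonomic arrays averaged 6.70 ± 1.34 and NCSCs arrays 4.72 ± 0.56 (SD, n = 4), a difference of 1.98 (3.96-fold, SE 0.54, 95% interval 0.838 to 3.13), which did not pass (unadjusted p = 0.00226, limma adjusted p = 0.155). Without Autonomic replicate 1 the difference was 2.37 (SE 0.53) and passed (limma adjusted p = 0.0458), while Nefl without it was at 2.24 (adjusted p = 0.122). With each single array left out in turn, the difference ran from 1.59 to 2.37 for Nefm and from 1.63 to 2.24 for Nefl. The lowest limma adjusted p of the 10 genes was 0.293 without Autonomic replicate 2 and 0.343 without Autonomic replicate 3. Autonomic arrays differed from Glia arrays by 1.68 (limma adjusted p = 0.615) and from Mesenchymal arrays by 1.64 (adjusted p = 0.348). Nefl and Nefm are neighbours on chromosome 14 in GRCm38.p6, with 0 protein-coding genes starting between them. Across the 16 arrays they correlated at r = 0.668, and at 0.306 after each group's mean was subtracted, given as a description of arrays that share groups.

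Ina, alpha-internexin, which precedes the neurofilament subunits in many developing neurons, was at 7.44, 3.79, 3.73 and 4.13 in Autonomic, 3.06, 5.68, 4.96 and 3.68 in Glia, 5.70, 3.45, 6.75 and 3.63 in Mesenchymal and 5.02, 3.57, 4.10 and 3.83 in NCSCs replicates. Its level in the Autonomic group rested on 1 array, and all groups overlapped. Autonomic minus NCSCs was 0.64 (SE 0.90, limma adjusted p = 0.886) with all arrays and -0.24 without Autonomic replicate 1 (adjusted p = 0.95). Both dimmer Ina probe sets were also highest in Autonomic replicate 1, at 6.30 and 4.23, against 2.70 to 3.71 and 1.93 to 3.35 on the other Autonomic arrays. Mesenchymal minus NCSCs was 0.76, and 0.13 without Mesenchymal replicate 3.

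Elavl3 (HuC), an early neuronal RNA-binding protein, kept the narrowest range, at 4.28, 3.88, 4.55 and 4.68 in Autonomic, 4.09, 3.82, 4.01 and 4.57 in Glia, 4.44, 4.33, 4.21 and 4.47 in Mesenchymal and 4.39, 4.12, 4.17 and 3.79 in NCSCs replicates. No group stood apart. Autonomic minus NCSCs was 0.23 (95% interval -0.213 to 0.668, limma adjusted p = 0.794). The sign depended on the probe set, since the second one gave -1.04. That probe set was at 7.92 both in NCSCs replicate 4 and in Mesenchymal replicate 3 and between 2.38 and 4.85 on the other 14 arrays.

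Elavl4 (HuD), which stabilises transcripts such as Gap43 RNA in neurons, was at 6.26, 4.53, 6.01 and 5.04 in Autonomic, 5.60, 5.17, 6.21 and 5.07 in Glia, 5.29, 5.95, 7.51 and 5.64 in Mesenchymal and 5.30, 5.37, 3.36 and 6.86 in NCSCs replicates. The groups overlapped, with the lowest level in NCSCs replicate 3 and the highest in Mesenchymal replicate 3. Mesenchymal minus NCSCs was 0.88 (SE 0.65, limma adjusted p = 0.80), 0.41 without Mesenchymal replicate 3 and 1.43 without NCSCs replicate 4. Autonomic minus NCSCs was 0.24 (adjusted p = 0.95), -0.03 without Autonomic replicate 1 and 0.78 without NCSCs replicate 4, so neither its size nor its sign was settled. The values also depended on the probe set. Another Elavl4 probe set was nearly as bright as the leading one (mean 5.53 against 5.57). It gave 1.57 for Mesenchymal minus NCSCs (unadjusted p = 0.0454, limma adjusted p = 0.67). For Autonomic minus NCSCs it gave 1.09 (limma adjusted p = 0.739). The dimmest Elavl4 probe set (mean 4.67) gave 0.86 for Mesenchymal minus NCSCs and 0.10 for Autonomic minus NCSCs. Elavl4 and Gap43 correlated at r = -0.442 over the 16 arrays, as a description.

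Snap25 was at 5.59, 1.77, 1.92 and 6.73 in Autonomic, 1.44, 2.40, 3.04 and 1.61 in Glia, 4.20, 6.33, 5.76 and 3.19 in Mesenchymal and 1.84, 2.47, 1.65 and 4.22 in NCSCs replicates. Autonomic replicates 1 and 4 were high and replicates 2 and 3 low, and all Mesenchymal arrays lay above all Glia arrays. Mesenchymal minus NCSCs was 2.33 (SE 1.05, unadjusted p = 0.043, limma adjusted p = 0.641), Glia minus Mesenchymal was -2.75 (unadjusted p = 0.0197, limma adjusted p = 0.586) and Autonomic minus NCSCs was 1.46 (limma adjusted p = 0.716). The last was 0.93 without Autonomic replicate 1 and 2.02 without NCSCs replicate 4. With 16 added to each intensity before the log, which compresses differences of dim genes, Mesenchymal minus NCSCs was 1.10 and Glia minus Mesenchymal -1.25. A second Snap25 probe set gave 2.77 for Mesenchymal minus NCSCs (unadjusted p = 0.0128, limma adjusted p = 0.562) and 0.48 for Autonomic minus NCSCs, and held 4.39, 6.84, 5.61 and 1.90 in Mesenchymal replicates. On it Autonomic replicate 4 was at 1.72, so the high level of that array was not shared by both probe sets. The spread of Snap25 around group means (residual SD 1.61) exceeded that of 99.1% of genes and that of Ina (1.38) 97.7%, against a median of 0.438 over all genes and 0.274 for Elavl3.

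**Figure D2:**
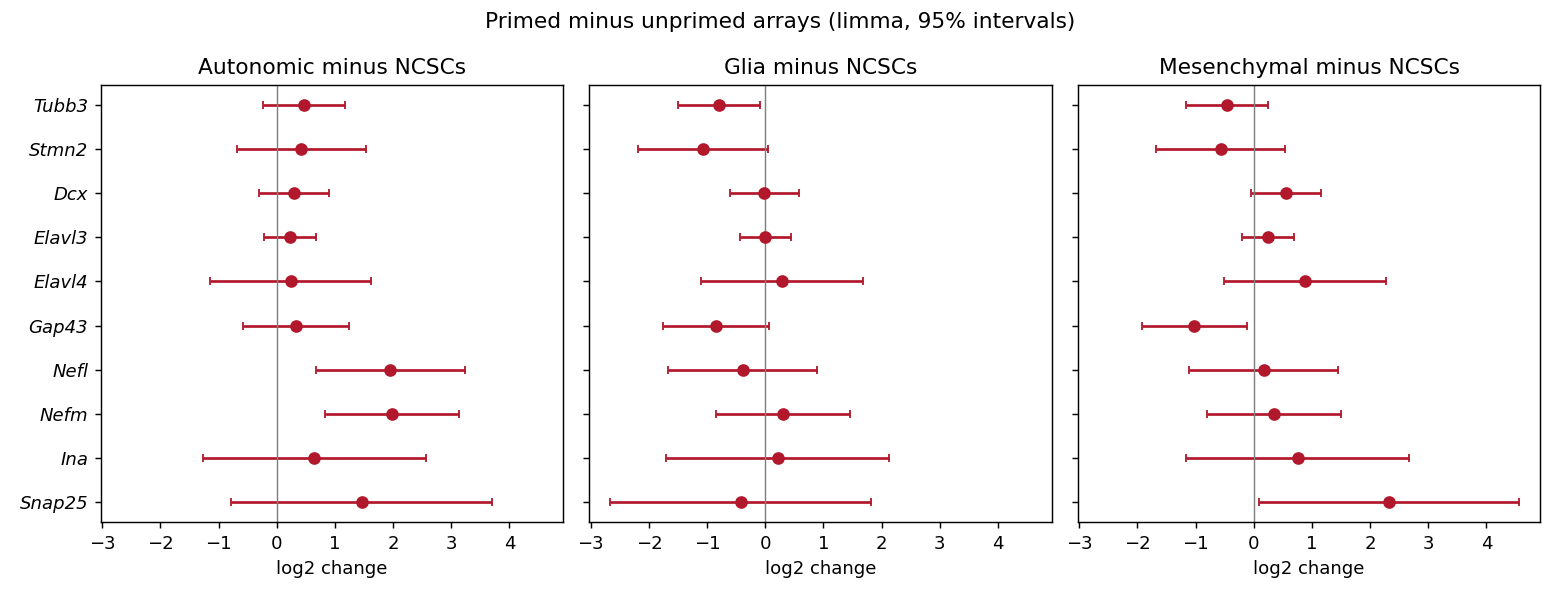
Log2 change of each gene in Autonomic, Glia and Mesenchymal arrays, each minus NCSCs arrays (points, horizontal axes) with 95% intervals of limma (bars). In the Autonomic panel the intervals of Nefl (0.671 to 3.23) and Nefm (0.838 to 3.13) lie above 0, as does that of Snap25 in the Mesenchymal panel, those of Tubb3 in the Glia and Gap43 in the Mesenchymal panel lie below 0, and the others include it.

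In Autonomic minus NCSCs arrays all 10 genes had a value above 0, as 50.5% of 18194 genes did, with a median of 0.45 for the 10. By limma 0 of 10 passed at an adjusted p under 0.05, where 0.434% of all genes passed, and 2, Nefl and Nefm, had an unadjusted p under 0.05, where 9.8% of all genes did. These 2 were also the genes whose arrays did not overlap, which held for 5.53% of all genes. Without Autonomic replicate 1, 8 of 10 values were above 0 and 1, Nefm, passed. With the Gapdh ratio as a covariate 8 of 10 were above 0, and 9 with the mean of all probe sets, with probe sets marked x, s or a left out, or without NCSCs replicate 3. In Glia minus NCSCs arrays 4 values were above 0 (49.2% of all genes) and 6 below, with a median of -0.20. None passed limma (0 of 10, against 0.511% of all genes) and 1, Tubb3, had an unadjusted p under 0.05 (9.91% of all genes). Only Stmn2 did not overlap between Glia and NCSCs arrays (7.18% of all genes). In Mesenchymal minus NCSCs arrays 7 values were above 0 (49.2% of all genes) and 3 below, with a median of 0.29. The limma fit called 0 of 10 (0.022% of all genes), 2 had an unadjusted p under 0.05, Snap25 above 0 and Gap43 below (7.7% of all genes), and 0 did not overlap (5.69% of all genes). The 3 comparisons share the NCSCs arrays.

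**Figure D3:**
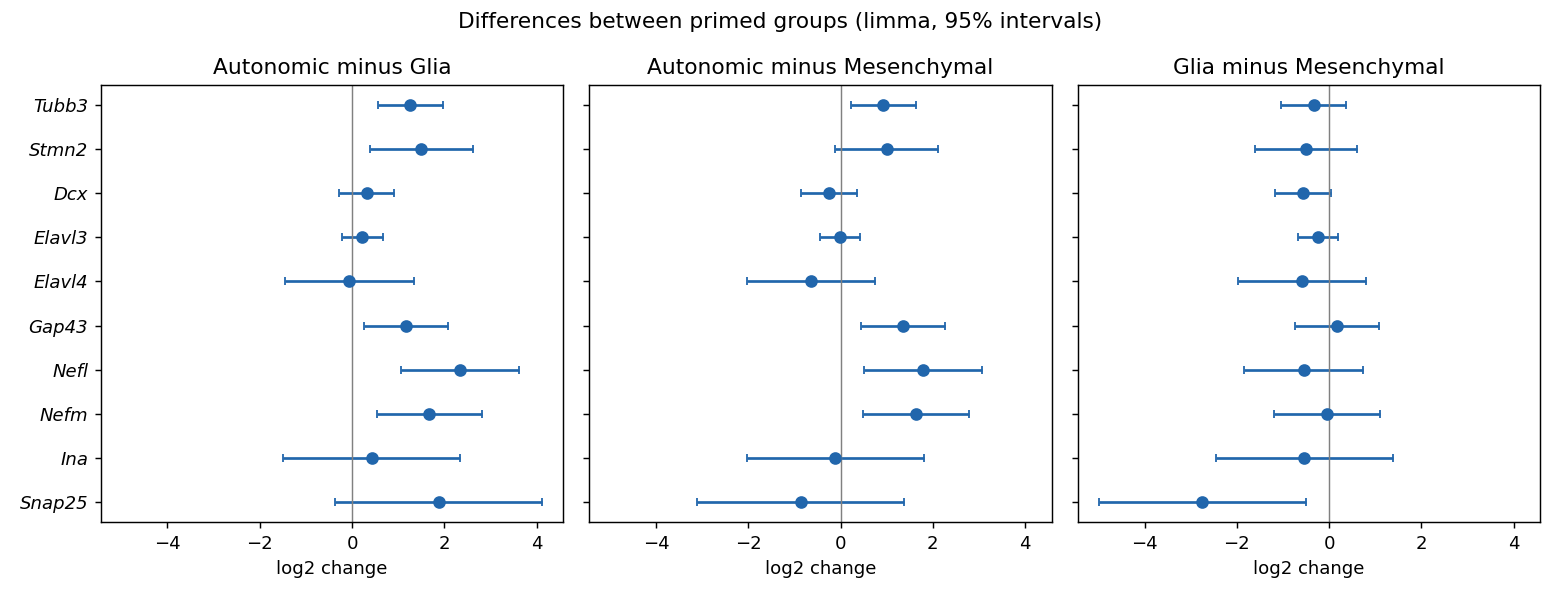
Log2 change of each gene between primed groups (points) with 95% limma intervals (bars), for Autonomic minus Glia, Autonomic minus Mesenchymal and Glia minus Mesenchymal arrays. In the first panel the intervals of Tubb3, Stmn2, Gap43, Nefl and Nefm lie above 0, in the second those of Tubb3, Gap43, Nefl and Nefm, and in the third that of Snap25 lies below 0.

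Between primed groups Tubb3, Stmn2, Gap43, Nefl and Nefm had the larger values in Autonomic arrays, and no difference passed the test. In Autonomic minus Glia arrays 9 of 10 values were above 0 (51.4% of all genes), with a median of 1.22. Here limma called 0 of 10 (0.011% of all genes), and 5, Tubb3, Stmn2, Gap43, Nefl and Nefm, had an unadjusted p under 0.05 (6.24% of all genes), each with a value above 0. The arrays of Tubb3, Stmn2 and Nefl did not overlap (2.96% of all genes). In Autonomic minus Mesenchymal arrays 5 values were above 0 (51.2% of all genes) and 5 below. Again limma called 0 of 10 (0.346% of all genes), and 4, Tubb3, Gap43, Nefl and Nefm, had an unadjusted p under 0.05 (8.23% of all genes), each with a value above 0. Tubb3 and Gap43 did not overlap there (4.17% of all genes). In Glia minus Mesenchymal arrays 1 of 10 values was above 0 (49.9% of all genes), with a median of -0.52. Of the 10, limma called 0 (0.225% of all genes), and Snap25 alone had an unadjusted p under 0.05 (7.05% of all genes) and arrays that did not overlap (4.55% of all genes). These comparisons share arrays, and with 4 arrays a group and this spread, intervals were often wider than a 2-fold change.

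The group with the highest mean was Autonomic for Tubb3, Stmn2, Gap43, Nefl and Nefm and Mesenchymal for Dcx, Elavl3, Elavl4, Ina and Snap25. In the order of the 4 group means of each gene, every pair of neighbouring groups overlapped, for all 10 genes. Over the 16 arrays Dcx correlated with Snap25 at r = 0.685 and with Elavl4 at 0.668, and Gap43 with Nefl at 0.664 (0.526, 0.646 and 0.599 within groups). Nefl and Snap25 had r = -0.182 over all arrays and -0.791 within groups. These values describe 16 arrays that share group and array-wide differences.

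**Figure D4:**
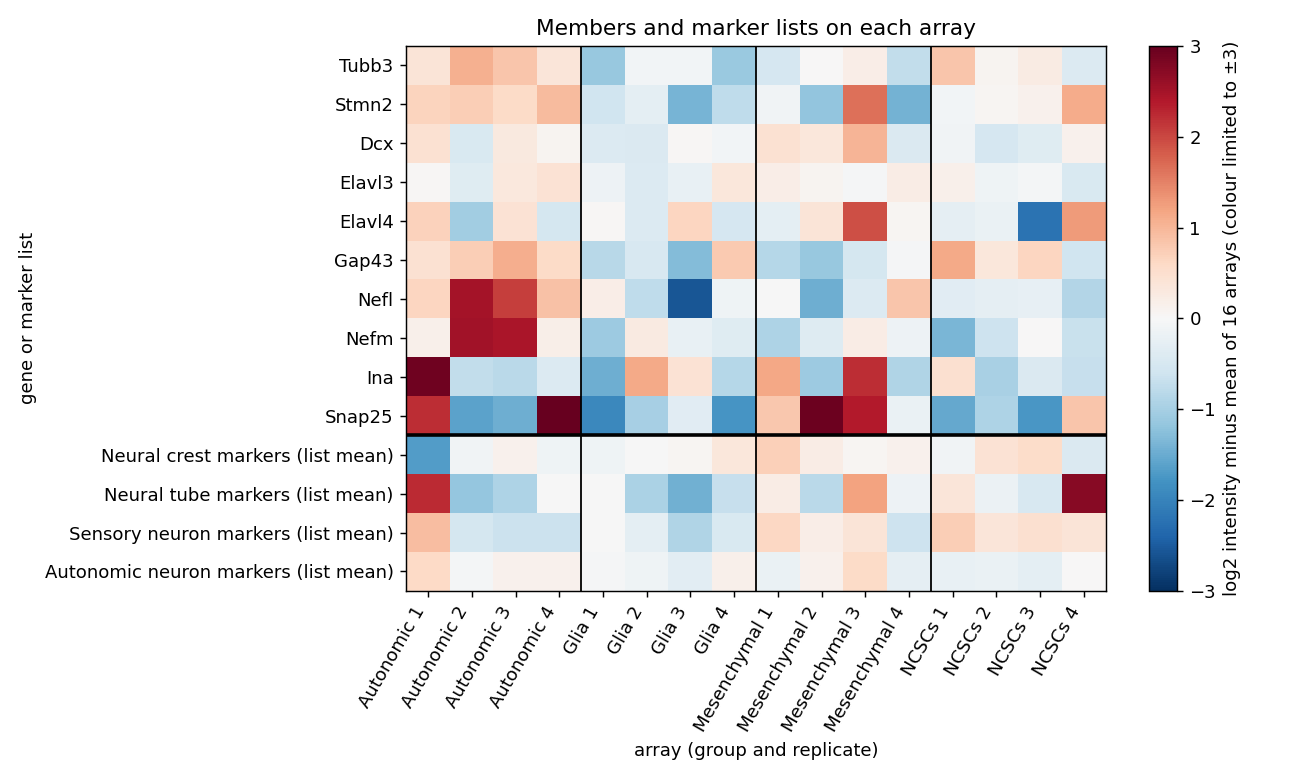
Log2 level of each gene, and mean log2 level of 4 marker lists, on each array minus the mean over 16 arrays (colour, limited to 3 in each direction), with arrays in columns by group. Autonomic replicate 1 is high in Ina and in the neural tube and sensory neuron lists and low in the neural crest list, and Mesenchymal replicate 3 is high in Stmn2, Elavl4, Ina and the neural tube list.

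Other genes of the same machinery were read from lists of related genes. Centring on housekeeping genes moved the median of all genes by 0.25 in Autonomic minus NCSCs arrays, as much as or more than most of the list medians below. Of 24 microtubule and growth cone proteins 12 were above and 12 below 0 in Autonomic minus NCSCs arrays, with a median of 0.02. By limma 0 passed, and 5 above and 1 below 0 had an unadjusted p under 0.05. Over all genes 0.434% passed and 9.8% had an unadjusted p under 0.05 in this comparison, and the lists below are read against the same shares. Dpysl3, a growth cone protein of the CRMP family that binds tubulin, was the only one of them to pass in any of the 6 comparisons. It was at 8.95, 9.66, 8.86 and 8.84 in Autonomic, 8.87, 9.50, 8.49 and 8.44 in Glia, 7.25, 6.96, 6.61 and 7.89 in Mesenchymal and 8.11, 7.93, 7.46 and 7.69 in NCSCs replicates. All Autonomic and Glia arrays lay above all Mesenchymal and all NCSCs arrays. Dpysl3 was higher in Autonomic than in Mesenchymal arrays by 1.90 (SE 0.30, limma adjusted p = 0.0114) and in Glia than in Mesenchymal arrays by 1.64 (adjusted p = 0.0381), and its difference between Autonomic and NCSCs arrays was 1.28 (adjusted p = 0.0995). The Autonomic minus Mesenchymal call held in 27 of 29 alternatives, while the Glia minus Mesenchymal call held in 14 of 29. It was lost without any single Glia or NCSCs array or Mesenchymal replicate 1, 2 or 3, under the replicate block, with all probe sets tested or averaged, and with only the compared groups fitted (limma adjusted p of 0.0044 to 0.155 over all alternatives). The Autonomic minus NCSCs difference passed under cyclic loess (adjusted p = 0.039) and under housekeeping centring (0.0135). The brightest members of the list were at 10.88 in Autonomic and 11.14 in NCSCs arrays (Marcks, an actin-linked membrane protein, limma adjusted p = 0.661) and at 10.57 in Autonomic and 10.81 in NCSCs arrays (Stmn1, the general stathmin, adjusted p = 0.607).

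The 9 other measured tubulins were above 0 in 3 and below in 6 in Autonomic minus NCSCs arrays (median -0.27). By limma 0 passed, and 0 above and 2 below 0 had an unadjusted p under 0.05. Tuba1a, the main alpha-tubulin of young neurons, was at 13.08 in Autonomic and 13.01 in NCSCs arrays (adjusted p = 0.904), and Tubb2b, a beta-tubulin of neural progenitors and neurons, at 11.75 in Autonomic and 12.18 in NCSCs arrays (adjusted p = 0.409). The 7 other intermediate filament genes split 4 above and 3 below, with 0 passed by limma and 1 with an unadjusted p under 0.05. Vim, the vimentin of crest cells, was at 12.22 in Autonomic and 11.91 in NCSCs arrays (adjusted p = 0.597), and the lamin Lmnb1 at 8.04 in Autonomic and 8.15 in NCSCs arrays (adjusted p = 0.96).

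Of 20 RNA-binding proteins 7 were above and 13 below 0 in Autonomic minus NCSCs arrays (median -0.13), with 0 passed by limma and 2 above and 1 below 0 at an unadjusted p under 0.05. The Musashi proteins of neural progenitors were at 9.39 in Autonomic and 9.33 in NCSCs arrays for Msi1 (limma adjusted p = 0.985) and at 9.16 in Autonomic and 9.67 in NCSCs arrays for Msi2 (adjusted p = 0.703). Of 18 vesicle release genes 11 were above and 7 below 0 (median 0.07), with 0 passed by limma and 3 above 0 at an unadjusted p under 0.05. Snap23, the widely expressed relative of Snap25, was at 10.43 in Autonomic and 10.35 in NCSCs arrays (limma adjusted p = 0.964), and the vesicle SNARE Vamp2 at 7.12 in Autonomic and 6.96 in NCSCs arrays (adjusted p = 0.975). Of 11 genes of the REST complex 5 were above and 6 below 0 (median -0.02), with 0 passed by limma and 3 below 0 at an unadjusted p under 0.05. Its brightest members, the deacetylase Hdac2 (11.02 in Autonomic and 11.04 in NCSCs arrays, adjusted p = 0.988) and the demethylase Kdm1a (9.78 in Autonomic and 9.66 in NCSCs arrays, adjusted p = 0.912), differed by less than the spread of their arrays.

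Among genes brighter than the median gene, those whose levels followed Tubb3 most closely over the 16 arrays were Mrps25 (r = 0.801), Crem (0.797) and Zswim4 (0.781), of 9096 candidates. Those closest to Dcx were Syn3 (0.834), Add2 (0.798) and Mif4gd (0.763), of 9097 candidates. These are the highest of many correlations over 16 arrays and are given as a description.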

How the data were processed

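RNA was measured on 16 Affymetrix arrays. Total RNA was labelled as biotinylated cRNA with a one-cycle kit, per the labels' protocols. The deposited values are intensities of probe sets, which the authors made with RMA (version not given), per the submitters' processing notes. The intensities ran from 1.487 to 31600, so they are linear. Their log2 was taken here without an offset, and no further normalization was applied.

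Of 45101 probe sets, 34958 carried 1 gene symbol, 932 several and 9211 none. The first were kept, and 99.4% of them matched RefSeq gene names. The brightest probe set, by its mean of 16 arrays, stood for each of 18194 genes, and 9012 genes had several.

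With limma 3.58.1 in R 4.3.3, 1 mean per group was fitted to the 16 arrays together, two-sided, with Benjamini-Hochberg adjustment over all genes and calls at an adjusted p under 0.05. There were 6 comparisons. The number of arrays limits the precision. Replicate numbers did not pair the arrays (correlations of same-numbered deviations -0.067 to 0.064).

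The 10 genes, the related lists and the comparisons were chosen with earlier results of these data known. Named are the 10 genes, called members of each list (the 2 brightest where none was called), and the 3 genes most correlated with Tubb3 and Dcx. Alternatives were other scalings, an offset, filters, probe set choices, eBayes settings, array weights, the replicate number as a block, the Gapdh ratio as a covariate, fits of only 2 groups, and leaving out each array. The scripts were tested on simulated data.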

Additional observations from a re-analysis of the deposited data

Results flagged for a closer look

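Of 40 sets of 4 arrays (10 genes in 4 groups), 1 held an array whose gap to the nearest other exceeded Dixon's 95% critical value. Ina in Autonomic replicate 1 was at 7.44, against 3.73 to 4.13 on the other Autonomic arrays. Chance alone flags about 1 in 20 groups.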

How the results depend on the processing

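Over 29 alternatives, 1723 of 1728 log2 changes of the 10 genes kept their side of the threshold and, where the value was at least 1 SE from 0, their direction. The exceptions were Nefm in Autonomic minus NCSCs arrays, which passed without Autonomic replicate 1 (2.37), and 4 reversed values: in Glia minus Mesenchymal arrays Tubb3 (0.060) and Elavl3 (0.157) under centring on housekeeping genes, and in Autonomic minus NCSCs arrays Elavl3 with probe sets marked x, s or a left out (-1.04) and with the mean of all probe sets (-0.20). None of the 10 genes was called in the main fit, so keeping a side meant staying uncalled, which says little about stability. Sign changes of values within 1 SE of 0 were not counted. Ina in Autonomic minus NCSCs arrays ran from -0.24 to 0.99, and Stmn2 in Glia minus Mesenchymal arrays from -0.89 to 0.14. Dcx and Snap25 were absent from the fit of genes brighter than the median gene. The number of the 10 genes called in Autonomic minus NCSCs arrays ranged from 0 to 1 when single arrays were left out, and was 0 under the other settings. Of 521 values of the 13 related genes named, 499 kept their call and, where the value was at least 1 SE from 0, their direction. By this rule 2 reversed: Stmn1 in Autonomic minus NCSCs arrays under housekeeping centring (0.00497) and Dpysl3 in Mesenchymal minus NCSCs arrays with the mean of all probe sets (0.091). Values nearer 0 could change sign without being counted, such as Dpysl3 in Autonomic minus Glia arrays (-0.058 to 0.479). The call of Dpysl3 in Autonomic minus Mesenchymal arrays was lost with the mean of all probe sets (adjusted p = 0.108) and with only the compared groups fitted (0.125). Its Glia minus Mesenchymal call was lost in 15 of 29 alternatives, among them the replicate block (0.0572), all probe sets tested (0.0533), the mean of all probe sets (0.12) and only the compared groups (0.155). Dpysl3 gained calls in Autonomic minus NCSCs arrays under cyclic loess (0.039) and housekeeping centring (0.0135) and in Glia minus NCSCs arrays under housekeeping centring (0.0256). The cause was not tested.

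With the replicate block, the lowest adjusted p of the 10 genes in Autonomic minus NCSCs arrays was 0.0544 (Nefm), and 63 genes of all passed, against 79 without it. Replicate numbers did not pair the arrays, and 0 of 16 arrays matched their own number best. Genes called among all genes in Autonomic minus NCSCs arrays ranged from 31 to 237 with single arrays left out (237 without Autonomic replicate 1) and from 17 to 124 under other settings. The ranges were 25 to 168 and 30 to 149 in Glia minus NCSCs, 0 to 3 and 0 to 9 in Mesenchymal minus NCSCs, 2 to 7 and 0 to 5 in Autonomic minus Glia, 36 to 141 and 26 to 95 in Autonomic minus Mesenchymal, and 14 to 68 and 22 to 76 in Glia minus Mesenchymal arrays. Housekeeping centring moved the median of all genes by 0.25 in Autonomic minus NCSCs arrays and turned the split of calls to 48 higher and 23 lower, against 24 and 55 (84 and 19 against 34 and 59 in Glia minus NCSCs, 70 and 25 against 25 and 38 in Autonomic minus Mesenchymal, 63 and 13 against 13 and 28 in Glia minus Mesenchymal arrays). Signal over background was not measured, which limits the dim genes Dcx and Snap25.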
